A study of Homo sapiens with 3 samples.

Results

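The alpha-arrestins are a family of 6 human genes, ARRDC1 to ARRDC5 and TXNIP. The question here was which of them had a chromatin peak with an antibody to VCP or to a Flag tag on VCP. The 6 genes were taken by name out of 19866 protein-coding genes in RefSeq (GRCh38.p14). The family was chosen by the fold enrichment and -log10 q of the ARRDC4 peak in the Flag list, so the values of that peak are a description and not a test. HCT116, a human colorectal cancer cell line, was made to express VCP carrying a Flag tag. Chromatin fixed in formaldehyde and cut with micrococcal nuclease was precipitated with an antibody to VCP (1 library) or with an antibody to Flag (1 library), and 1 input library had no antibody. The labels describe all 3 libraries as the same cells, name no untagged control, and give no replicate, so no value below has an error between cultures. The deposited lists hold 1816 VCP peaks and 5719 Flag peaks, and positions are 1-based on hg38.

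Alpha-arrestins are adaptor proteins with an arrestin fold. Most carry PPxY motifs that bind ubiquitin ligases of the NEDD4 family and bring them to receptors and transporters in the membrane. TXNIP also binds thioredoxin, and TXNIP and ARRDC4 both lower glucose uptake. MondoA, encoded by MLXIP, pairs with MLX and switches on TXNIP and ARRDC4 when glucose is plentiful, through E-box-like elements in their promoters. VCP is a hexameric ATPase that pulls ubiquitin-tagged proteins out of complexes, chromatin included.

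Of the 6 genes, 3 had a Flag peak inside the gene or within 10 kb of it (ARRDC1, ARRDC4 and ARRDC5), against 23.6% of all protein-coding genes. A VCP peak lay that near to 1 gene (ARRDC1), against 6.17% of all protein-coding genes. These were 4 intervals in all, and ARRDC2, ARRDC3 and TXNIP had none. At a q of at most 0.05 the Flag count was 2 (ARRDC4 and ARRDC5), against 10.6% of protein-coding genes, and the VCP count was 0, against 0.619%. The 3 Flag peaks were unlike in strength, with fold enrichments of 25.3, 5.73 and 2.89. Fold enrichment is the authors' ratio of reads at the summit to the local background, with 1 read added to each. The median over the whole Flag list was 3.49. ARRDC4 was the only member with a Flag summit within 1 kb of a gene end, a place where 11.7% of protein-coding genes had one. Because the family was chosen for the ARRDC4 peak, ARRDC4 was bound to be in each of these Flag counts. Without it they rest on ARRDC1 and ARRDC5, at a q of at most 0.05 on ARRDC5 alone, and at gene ends on no member. The Flag counts are therefore a description as well.

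**Figure D1:**
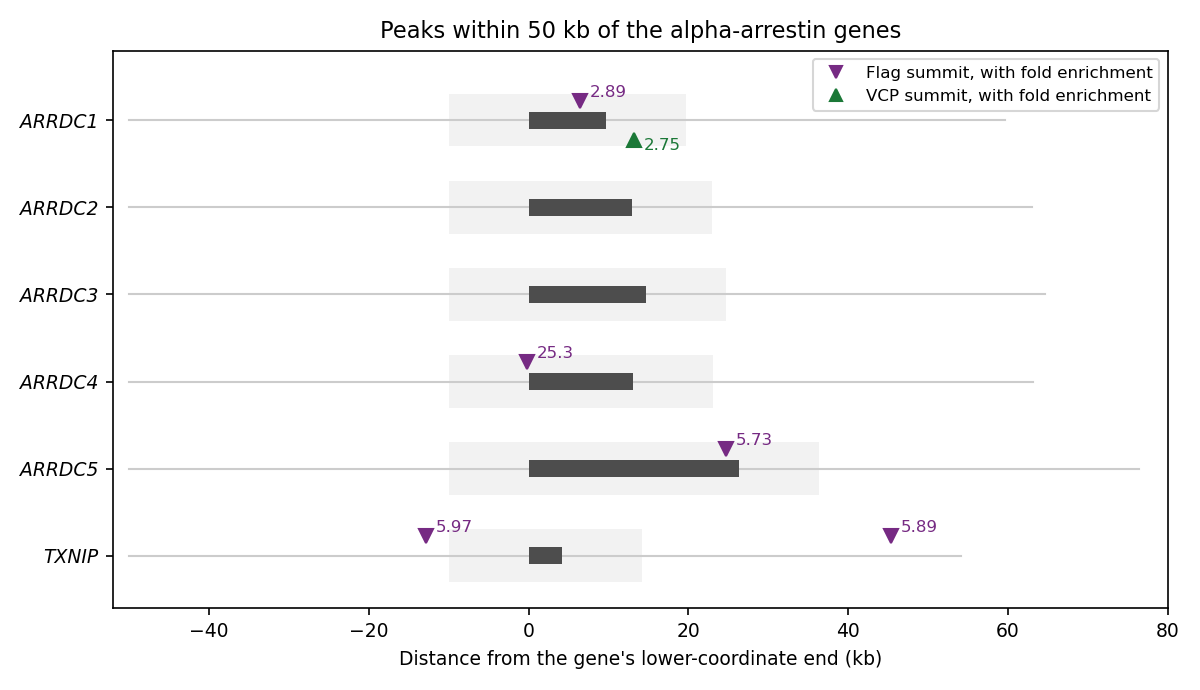
Peaks within 50 kb of each alpha-arrestin gene, drawn to scale from the gene's lower-coordinate end (x axis, kb). Dark boxes are the genes, pale boxes the 10 kb windows, triangles the summits of Flag (purple, above) and VCP (green, below) peaks with their fold enrichment. ARRDC4 has its Flag summit just outside the gene, and the 2 Flag summits near TXNIP fall outside its window.

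ARRDC4 lies on chromosome 15 from 97960703 to 97973833, and RefSeq places its transcript start at the lower coordinate. The Flag peak covered 97960312 to 97960697, a width of 386 bp, and ended 6 bp before the gene. Its summit at 97960491 lay 212 bp before the start. The DNA around that summit is printed here because the summit falls beside an E-box, the letters CACGTG that MondoA, MYC, MAX, TFE and USF proteins can bind. It runs from 97960471 to 97960511 on the plus strand, with the summit as its central base and the E-box in capitals.
ARRDC4 summit, chr15:97960471-97960511: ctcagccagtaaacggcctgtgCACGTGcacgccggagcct
The E-box occupies 97960493 to 97960498, and its centre is 4.5 bp from the summit. A summit is the highest point of overlapping fragments and not a footprint, so this is a distance between positions and does not name a bound factor.

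The ARRDC4 summit held 71 reads (exact 95% Poisson interval 55.5 to 89.6) over a local background of 1.85 reads. These reads were recovered from the deposited fold enrichment and p-value, and the interval covers counting error only. The background equals the lowest in the Flag list. Other Flag peaks share this value, among them those at MLXIP, MLX and MNT below, so it is not particular to ARRDC4. The -log10 q of the ARRDC4 peak was 76.0, rank 1 of 5719, and its fold enrichment was also rank 1. The next -log10 q in the list was close, 73.3, at a peak with a fold enrichment of only 2.20. By reads the ARRDC4 peak was rank 13, since peaks in stretches of very high background held more, up to 2804. By width it was rank 861, above the upper quartile of 325 bp.

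In fold enrichment no other Flag peak came near that of ARRDC4. The next at a gene end was shared by ADIRF, a gene first described in fat cells, and LOC124902474, with a fold enrichment of 10.9 and 35 reads (24.4 to 48.7), so the ARRDC4 peak was 2.32 times as high in fold enrichment. The zinc finger gene ZNF655 and its neighbour FAM200A shared a peak of 10.4 with 33 reads. COQ2, which acts in ubiquinone synthesis, had 9.70 with 27 reads, and NECTIN3, a cell adhesion gene, had 8.87 with 28 reads. USE1, a SNARE gene of retrograde transport, and HBEGF, an EGF receptor ligand gene, tied at 8.08 with 22 reads each. Of all Flag peaks 4 reached a fold enrichment of 10. The peaks of ADIRF, FAM200A with ZNF655, COQ2, NECTIN3, USE1 and HBEGF, like that of ARRDC4, overlapped no peak of the VCP list. The share of all Flag peaks that overlap a VCP peak is not given here, so this does not set these peaks apart.

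**Figure D2:**
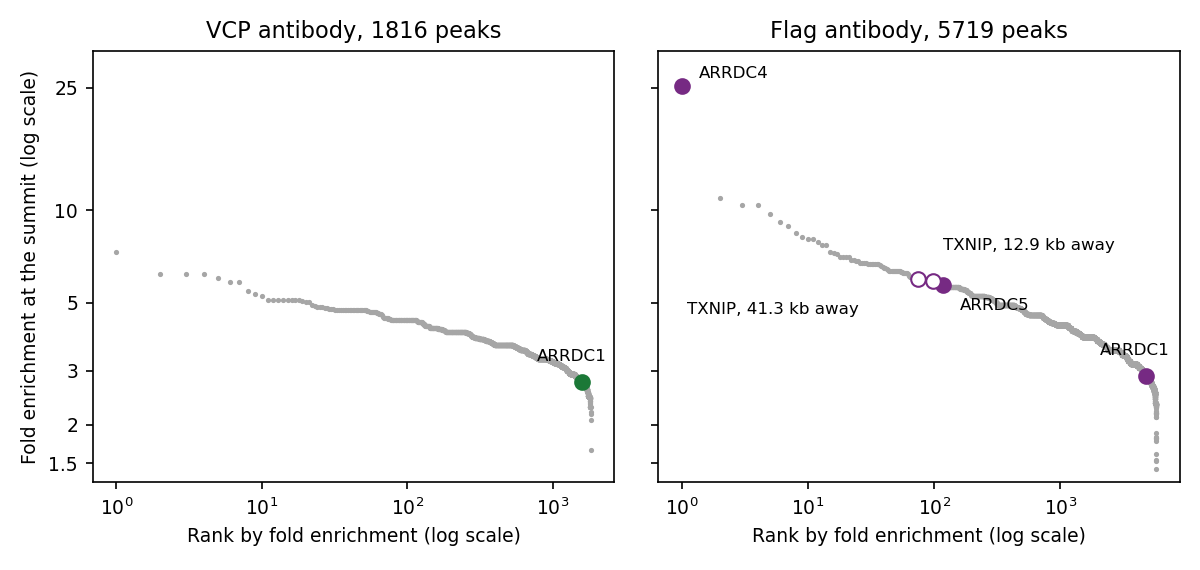
Fold enrichment at the summit (y axis, log scale) against rank by fold enrichment (x axis, log scale) for every VCP peak (left) and Flag peak (right). Filled circles are peaks within 10 kb of an alpha-arrestin gene and open circles the 2 Flag peaks outside the TXNIP window. ARRDC4 stands alone at 25.3, while ARRDC1 lies in the low tail of each list.

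The ARRDC4 peak was isolated along the chromosome as well. The nearest Flag peaks lay 663 kb away on the lower side (fold enrichment 2.35) and 660 kb away on the higher side (fold enrichment 6.06). The nearest VCP peak on chromosome 15 was 4561 kb away (fold enrichment 3.98). The lowest background in the VCP list was 1.74 reads, close to that at ARRDC4 in the Flag library. Over that background a VCP summit needed at least 7 reads, a fold enrichment of 2.92, to reach the lists' -log10 p of 3. No interval at ARRDC4 met the listing threshold with the VCP antibody, which does not show that VCP is absent there. With no untagged control, the Flag peak does not show that VCP is present there either.

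TXNIP, on chromosome 1 from 145992435 to 145996579, had no peak in either list within 10 kb. This is the member that shares glucose-dependent control by MondoA with ARRDC4. The nearest Flag peak fell just outside the window, with its edge 12.5 kb and its summit 12.9 kb from the gene (145979519 to 145979958, summit 145979576, fold enrichment 5.97, -log10 q 5.47, 16 reads, 9.15 to 26.0). That summit was 728 bp from the end of POLR3GL, which encodes a subunit of RNA polymerase III, and 16.2 kb from the nearer TXNIP start. A further Flag peak lay 41.3 kb from TXNIP on the other side (146037728 to 146038372, summit 146037860, fold enrichment 5.89, 16 reads), amid a run of tRNA genes with TRH-GTG1-1 at 184 bp. The nearest VCP peak was 2257 kb away. Of the intervals inside the 10 kb windows, the farthest from its gene was the VCP peak near ARRDC1, at 3.46 kb.

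The upstream sequences of ARRDC4 and TXNIP are given next to each other because these are the paired MondoA targets and only ARRDC4 had a peak. They are the 250 bases before the RefSeq start, read in the direction of transcription, chr15:97960453-97960702 on the plus strand and chr1:145996580-145996829 on the minus strand. Capitals mark the E-box, the CCAAT box on either strand (printed as ATTGG when reversed), and a direct repeat of CACGNG with 5 bases between its copies.
ARRDC4 upstream: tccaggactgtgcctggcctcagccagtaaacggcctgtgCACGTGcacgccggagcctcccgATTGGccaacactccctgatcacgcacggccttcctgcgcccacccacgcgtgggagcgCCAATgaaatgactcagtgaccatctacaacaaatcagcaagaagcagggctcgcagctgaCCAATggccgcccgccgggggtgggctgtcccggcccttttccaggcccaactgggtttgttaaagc
TXNIP upstream: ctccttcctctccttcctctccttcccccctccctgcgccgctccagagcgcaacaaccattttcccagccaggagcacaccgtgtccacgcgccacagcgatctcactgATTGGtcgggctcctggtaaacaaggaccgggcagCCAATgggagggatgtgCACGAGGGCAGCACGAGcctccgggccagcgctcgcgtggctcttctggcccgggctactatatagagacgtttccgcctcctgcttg
Both promoters held CCAAT, the box bound by NF-Y, in 3 copies at ARRDC4 and 2 at TXNIP. Of the 35116 RefSeq promoter windows of 300 bases (250 before to 50 after a start), 34.6% held at least 1 copy, 10.8% at least 2 and 3.26% at least 3.

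The promoters differed in their E-box-like letters. ARRDC4 had 1 CACGTG, 210 to 205 bases before the start, and 7.26% of all windows held one. TXNIP had none in its window, and instead had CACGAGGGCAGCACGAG, 88 to 72 bases before its start, a match to the direct repeat that 20 windows (0.057%) held. That stretch is also 1 mismatch from the consensus of the carbohydrate response element, a pair of E-box-like parts 5 bases apart. The best match at ARRDC4 had 2 mismatches, and so had the best match at ARRDC2. The shares of all windows with 1 or 2 mismatches are not given here. An exact match to that consensus was in 31 windows (0.0883%) and in no window of a member. The related letters CACGCG were found on both strands of ARRDC4 at 1 place, as overlapping matches 142 to 135 bases before the start, and at 2 places in TXNIP. A match of letters is a description and not evidence of a bound site.

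**Figure D3:**
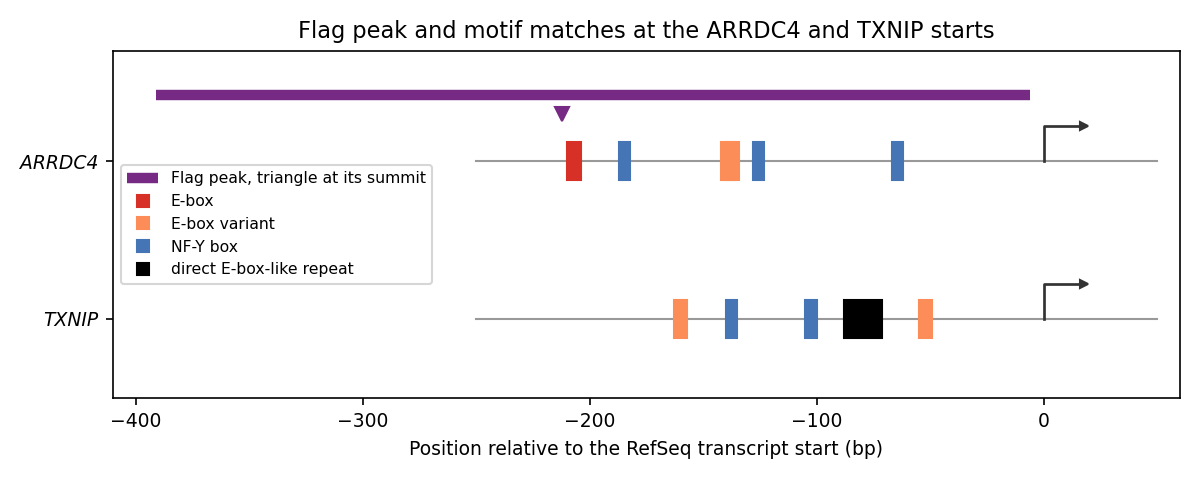
Map of the ARRDC4 and TXNIP windows of 300 bases, in bp from the RefSeq transcript start (x axis, arrow at 0). The purple bar is the ARRDC4 Flag peak with its summit as a triangle, and coloured boxes are motif matches: CACGTG (E-box), CACGCG (E-box variant), CCAAT (NF-Y box) and the direct repeat. The summit at 212 bp before the start lies beside the E-box, and TXNIP has no peak to draw.

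Among the other members with a RefSeq promoter window, none held CACGTG. ARRDC1 had 1 window, with 1 CCAAT and 81.3% G and C. ARRDC2 and ARRDC3 had 2 windows each, and CCAAT occurred once in 1 of the 2. The ARRDC4 window had 65% G and C and the TXNIP window that is printed 60.3%, against a median of 58.7% over all windows (quartiles 47 and 68). No promoter window was found for ARRDC5.

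ARRDC5, a family member known from testis, held the second Flag peak of the family. The gene spans 4890437 to 4916820 on chromosome 19, and the peak covered 4915113 to 4915336 with its summit at 4915191, a width of 224 bp. It had a fold enrichment of 5.73, a -log10 q of 5.13 and 16 reads (9.15 to 26.0) over a background of 1.97. By fold enrichment it was rank 117 in the Flag list, tied with 1 other, so 2.06% of Flag peaks were at least as high. The summit lay 1.63 kb inside one end of ARRDC5. It also lay within the gene model of UHRF1, a reader of hemimethylated DNA, which overlaps ARRDC5, and 4.82 kb from the nearest UHRF1 start in the promoter table. The peak therefore cannot be given to ARRDC5 rather than UHRF1 by position. The nearest VCP peak was 83.2 kb from it.

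ARRDC1, which recruits the ESCRT protein TSG101 to the plasma membrane and buds small vesicles, was the only member near a peak of each list. It spans 137605686 to 137615360 on chromosome 9. Its Flag peak lay inside the gene (137611816 to 137612218, summit 137612170, 403 bp wide) with a fold enrichment of 2.89, a -log10 q of 0.422 and 9 reads (4.12 to 17.1). This was rank 4734 of the Flag list, and 82.8% of Flag peaks were higher. The VCP peak lay outside the gene (137618825 to 137619014, summit 137618934, 190 bp wide) with a fold enrichment of 2.75, a -log10 q of 0.105 and 10 reads (4.80 to 18.4), rank 1595 of 1816. Neither reached a q of 0.05.

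The peaks near ARRDC1 marked separate places, 6.61 kb apart. The VCP summit was 3.57 kb beyond ARRDC1 and only 39 bp from an end of ARRDC1-AS1, a non-coding gene. That end faces EHMT1, which encodes a histone H3 lysine 9 methyltransferase and begins at 137619005, so the peak sits at the gap between ARRDC1-AS1 and EHMT1. By nearest gene end it belongs to them and not to ARRDC1.

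ARRDC2 and ARRDC3 had no peak within 50 kb in either list. ARRDC3, an adaptor for beta-adrenergic receptors and integrin beta 4, spans 91368631 to 91383317 on chromosome 5. Its nearest Flag peak was 87.8 kb away (fold enrichment 3.22) and its nearest VCP peak 894 kb away. ARRDC2 spans 18001124 to 18014102 on chromosome 19, with the nearest Flag peak 67.9 kb away (fold enrichment 4.04) and the nearest VCP peak 159 kb away (fold enrichment 4.38).

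The proteins that work with alpha-arrestins were examined in 6 lists of 52 genes, all matched to RefSeq. Within 10 kb, 26 of the 52 genes (50%) had a Flag peak and 3 (5.77%) a VCP peak, beside the 23.6% and 6.17% of all protein-coding genes given above. The genes of these lists were longer than most, with a median of 40.2 kb against 24.5 kb for all protein-coding genes. The part of length, of expression and of DNA copy number in these counts was not tested. At gene ends, within 1 kb, 12 of the 52 (23.1%) had a Flag summit, against 11.7%. The 36 Flag peaks had a median fold enrichment of 3.51, next to 3.49 for the whole list, and the highest was 6.73, so none came near ARRDC4.

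The genes for MondoA and its partners had no Flag peak above a fold enrichment of 3.98. Of 10 genes of the network of MondoA, MLX and MAX, 5 had a Flag peak and 0 a VCP peak. MLXIP, the MondoA gene, had 1 inside the gene, 28.7 kb from the nearer end (fold enrichment 2.81, 7 reads, -log10 q 0.201). At MLX, its partner, the summit lay 5.15 kb outside the gene (3.51, 9 reads). MAX, the common partner of MYC family proteins, had its summit 412 bp outside the gene (3.98, 12 reads), the only one of the 5 at a q of at most 0.05. MGA (2.96, summit inside the gene, 169 bp from one of its starts) and the repressor gene MNT (3.16, summit 5.92 kb outside the gene) had the others.

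Among 9 other genes described as targets of MondoA or of its liver relative ChREBP, PFKFB3 and KLF10 held stronger ones. The median fold enrichment of the 7 Flag peaks at these targets was 3.16, the same as at the MondoA network genes. PFKFB3, an enzyme that raises glycolysis, had a Flag peak inside the gene on chromosome 10 (summit 6163853) with a fold enrichment of 6.73, a -log10 q of 8.43 and 21 reads (13.0 to 32.1), rank 26 of the Flag list by fold enrichment. It lay 18.9 kb from the outer start. PFKFB3 also had 2 weaker Flag peaks, 1 of 2.96 with its summit 589 bp from another of its starts and 1 of 3.03. Its VCP peak lay 151 bp outside the outer start (summit 6144770, fold enrichment 4.01, 10 reads, -log10 q 0.697) and did not overlap the Flag peaks. KLF10, an early-response repressor gene, had Flag summits 1.58 kb inside the gene (4.35, 27 reads) and 151 bp outside it (4.05, 21 reads). PKLR, the liver pyruvate kinase gene (3.06), and ACACA, the acetyl-CoA carboxylase gene (3.16), had 1 weak Flag peak each. The ACACA summit lay 490 bp from one of the starts of that gene. HK2, FASN, RGS16, FGF21 and GPD1 had none in either list.

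Of 9 NEDD4-family ligase genes, the partners that alpha-arrestins recruit, 5 had a Flag peak and 0 a VCP peak. SMURF2 had 4 Flag peaks, the highest at 4.30, and only 1 of the 4 was inside the gene. ITCH (4.21), NEDD4L (3.93), HECW1 (3.51) and WWP1 (3.19) had 1 each. The ITCH summit lay 4.77 kb and the WWP1 summit 226 bp outside the gene. Of 8 genes for ESCRT and vesicle budding, on which ARRDC1 acts, 5 had a Flag peak and 1 a VCP peak. HGS (4.46) had a Flag summit 275 bp, PDCD6IP (3.83) 174 bp and VPS37B (3.86) 32 bp outside the gene, VPS28 (2.79 and 2.67) had a summit near each end, and VPS4A (2.69) had one 3.82 kb away. HGS had a further Flag peak 9.74 kb from the gene (fold enrichment 3.41, -log10 q 1.59, 15 reads), and this one overlapped the VCP peak of the list (fold enrichment 2.49, -log10 q 0.0545, 10 reads), with summits 120 bp apart. It was the only place near the 52 genes that both lists held, and the overlap over both whole lists is not given here. TSG101 itself had none.

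Of 8 other genes with an arrestin fold, 4 had a Flag peak. They were the retromer genes VPS26A (4.07, summit 9 bp inside an end) and VPS26B (4.14, summit 5.51 kb outside the gene). The related VPS26C (3.25) and RGP1 (2.96) had theirs inside the gene, that of VPS26C 357 bp from its start. The beta-arrestin gene ARRB1 had a VCP peak in its body (3.65, 9 reads) and no Flag peak, and ARRB2, SAG and ARR3 had neither. Of 8 genes for thioredoxin function and glucose uptake, 3 had a Flag peak. DDIT4, a stress-induced gene whose product binds TXNIP, had 2, the higher with its summit 74 bp inside its start (4.26, -log10 q 2.15). TXN2, the mitochondrial thioredoxin gene, had 2, with summits 1.57 kb outside the gene (3.81) and inside it (2.87). TXNRD1, a thioredoxin reductase gene, had 1 (3.86). Thioredoxin itself (TXN) and the glucose transporter genes SLC2A1, SLC2A3 and SLC2A4 had no peak in either list.

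**Figure D4:**
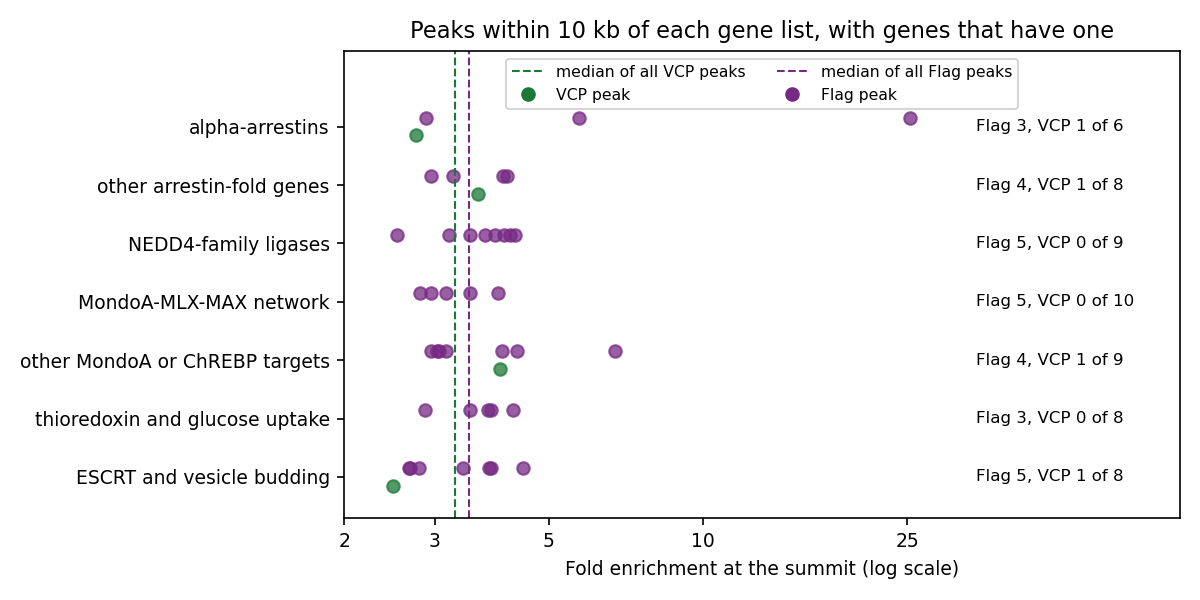
Fold enrichment (x axis, log scale) of every Flag (purple) and VCP (green) peak within 10 kb of each gene list (y axis), with the number of genes that have one at the right. Dashed lines are the medians over all peaks of each list, 3.49 for Flag and 3.28 for VCP. ARRDC4 at 25.3 lies far to the right of the peaks of the other lists, the highest of which is PFKFB3 at 6.73.

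Summits beside an E-box were then looked for in the rest of the Flag list, a search chosen after the ARRDC4 sequence had been seen, and the ARRDC4 peak is left out of the counts. Of the 105 other Flag summits in a promoter window with a fold enrichment of at least 5, 8 (7.62%) lay within 25 bp of the centre of a CACGTG. The same held for 41 of all 1017 other Flag summits in such windows (4.03%), for 2 of 158 VCP summits (1.27%), and for 1.27% of all positions in the windows. The VCP share rests on 2 summits, too few to tell it from the Flag share. At a fold enrichment of at least 5 only 6 VCP summits lay in a window, 0 of them that near, which is also too few. Anywhere in a window over the summit, a CACGTG was found for 15.8% of the 1017 Flag summits and 13.9% of the 158 VCP summits. Of all single windows 7.26% held one. A summit can lie in several windows, so the shares of summits are not on the same footing as the share of windows. The part that base composition and gene activity have in these shares was not tested. These 8 sites and that of ARRDC4 are printed with 10 bases on each side, to show what flanks the E-box, in the direction of the gene named, and the E-box is in capitals.
ARRDC4, chr15:97960483-97960508, plus: acggcctgtgCACGTGcacgccggag
ADIRF-AS1, chr10:86971398-86971423, minus: cgcgagcgcgCACGTGcatgcccccc
THRAP3, chr1:36224237-36224262, plus: ccgagcaaccCACGTGaccgccgaca
TUG1, chr22:30969178-30969203, plus: ccgcccctgtCACGTGacagcgtgcg
NDUFA11, chr19:5903907-5903932, minus: cctggggatgCACGTGctactctctt
LAMP1, chr13:113297070-113297095, plus: cgctgcgggtCACGTGccgctgcggg
NR1D2, chr3:23945956-23945981, plus: cgggcggggaCACGTGaggccgctcg
CREBRF, chr5:173056213-173056238, plus: cctccggcgaCACGTGacaggggtgc
GEMIN7, chr19:45079153-45079178, plus: agcccgcgacCACGTGgggcagtggc
THRAP3, which encodes a splicing and transcription cofactor, had the nearest E-box centre of the 9, 1.5 bp from its summit, with a fold enrichment of 9.13 and 25 reads (16.2 to 36.9). The lysosomal membrane gene LAMP1 had it at 2.5 bp (5.31, 26 reads), and the non-coding gene TUG1 at 13.5 bp (5.97, 16 reads). The site at ADIRF-AS1 belongs to the peak given above for ADIRF. ARRDC4 and ADIRF-AS1 were the highest of the 9 in fold enrichment.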

How the data were processed

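Peak lists of both precipitations were analysed, and the input was not used here. Per the submitters' processing notes, software named is bcl2fastq 2.17, Trimmomatic 0.33, Bowtie 1.1.2 and MACS2 2.1.0 with build hg38. Options were not given in the sources used here. For each peak the authors' deposited lists give a fold enrichment, -log10 p, -log10 q, a summit offset and a score. The fold enrichment was read as reads at the summit over local background, with 1 read added to each. The deposited score was not used. Peaks were called per library. The lowest deposited -log10 p was 3.00 in each list. Reads at each summit were recovered as the whole number whose Poisson tail came nearest to the deposited -log10 p, with a pseudocount of 1 read, and all 1816 and 5719 peaks matched within 0.001. Intervals are exact Poisson 95% intervals.

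Gene ends, promoter windows and sequences are from RefSeq (GRCh38.p14, the same build), with 19866 protein-coding genes on chromosomes 1 to 22, X and Y. A gene had a peak when any base of the peak lay within 10 kb of it. Ranks run from the highest value, and tied peaks share the best rank. Of the 6 members, 5 had promoter windows. Motifs were searched on both strands, and overlapping matches were counted. No hypothesis test was run, since each antibody has 1 library and the members and gene lists were chosen with earlier results of these data known. Named genes are the members, the Flag peaks at gene ends next in fold enrichment, and every gene of the pathway lists with a peak; genes of those lists without one, and the genes in the E-box search, were named after their values were seen. The code was tested on simulated data. Alternatives were other windows, q thresholds, summits in place of any base, other ranks and a looser E-box. Python 3.11.15, pandas 2.3.3 and scipy 1.17.1 were used.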

Additional observations from a re-analysis of the deposited data

How the results depend on the processing

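The ARRDC4 peak was rank 1 of the Flag list by -log10 q, by fold enrichment, by -log10 p and by -log10 q among peaks at gene ends. The shares in brackets are of all protein-coding genes. ARRDC4, for whose peak the family was chosen, is in every Flag count of members. With a Flag peak there were 3 alpha-arrestin genes with windows of 1 kb (17.6%) and 3 kb (19.2%) and by summit (23.5%), 4 with 50 kb (40.2%), where TXNIP entered, 2 at a q of at most 0.05 (10.6%) or 0.01 (7.36%), and 1, ARRDC4, with a summit within 1 kb of a gene end (11.7%). With a VCP peak there was 1 with 50 kb (12.1%) or by summit (6.14%), and 0 with 1 kb (4.65%), with 3 kb (5.08%), at gene ends (2.34%), and at a q of at most 0.05 (0.619%) or 0.01 (0.237%). At a q of at most 0.05 the genes of the 6 pathway lists with a Flag peak went from 26 to 12 of 52 (10.6% of all protein-coding genes), and those with a VCP peak from 3 to 0 (0.619%). With CACGCG allowed beside CACGTG, 3 members (ARRDC2, ARRDC4 and TXNIP) had a match in place of 1. No paired analysis was possible because each antibody has 1 library. The median Flag peak rests on 11 reads and the median VCP peak on 10, which sets the counting error of most peaks. A place that is not listed is not shown to lack VCP. With no untagged control, a place listed with the Flag antibody only is not shown to hold it.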
